A study of Bos taurus with 5 samples.

Results

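RAB proteins are small GTPases that give the membranes of a cell their identity. Each one switches between a GTP-bound form, which sits on a particular organelle or vesicle and recruits motors, tethers and other effectors, and a GDP-bound form, which is taken back into the cytosol. Exchange factors load a RAB with GTP, GTPase-activating proteins end the active state, and a lipid tail added after translation lets the protein enter the membrane. Some members work in nearly every cell, while others, such as the RAB3 group of synaptic and secretory vesicles, belong to specialised ones.

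Their transcripts were examined in cattle (Bos taurus) by RNA sequencing of 5 libraries. The labels name a tissue for each, 1 library apiece: brain, skin, lung, heart and limb. Members were taken by name, as genes called RAB followed by a number and at most 1 letter from A to D. They were chosen with earlier results of these data known. The rule found 60 of the 27607 genes in the table, with 59 distinct names, since RAB21 was listed under the identifiers ENSBTAG00000053598 and ENSBTAG00000019370. No breed, age, treatment or cell number is stated for any library in the labels, and the cells were lysed and pre-amplified on a chip made for single cells. No label had a second library, so differences describe these libraries alone and are given without an error or a p-value. The values are expression levels per length of transcript, taken as FPKM (fragments scaled to transcript length and to the library's mapped total), so levels of different genes can be set side by side.

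The tissue names are used here as labels only. Of 11 neuronal markers 0 were above 0 in the brain-labelled library, of 8 markers of alveolar epithelium 0 were above 0 in the lung-labelled one, and of 7 keratinocyte markers 1, KRT10 at 20.8 FPKM, was above 0 in the skin-labelled one. Under the heart label 1 of 9 cardiomyocyte markers was above 0 (ACTC1, cardiac actin, at 5.21 FPKM), and under the limb label 1 of 9 skeletal muscle markers (ACTA1, skeletal actin, at 37.6 FPKM). Several markers were higher under another label. ACTC1 was listed at 231 FPKM under the limb and 57.7 FPKM under the brain label, and KRT10 at 27.8 and 27.2 FPKM under the brain and heart labels. The basal keratin KRT5 had a value under the lung label alone, at 51.0 FPKM, and the surfactant gene SFTPC under the limb label alone, at 34.2 FPKM. Leukocyte markers, 8 genes, were listed at 0 in all 5 libraries. Summed FPKM ran from 1072430 to 1172798 per library and 4868 to 6394 genes reached 1 FPKM. Read depth could not be settled from the spacing of low values: between the brain and heart labels, 274 of 3557 genes had whole-number ratios at the best offset and 257 at another. Of 18 RAB genes that could be placed, 1 lay on the best offset, so the number of reads behind a member is unknown. A member listed at 0 may be expressed below what a library could show, and fewer cells of a type and less RNA per cell cannot be told apart.

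At 1 FPKM or more, 38 of the 60 RAB genes were detected in at least 1 library, against 34.8% of all genes and 43.8% of those with a name. Detection reached 28 members under the heart label, 27 under lung, 25 under brain, 23 under skin and 22 under limb. The share of all genes detected was 23.2%, 20.7%, 22.9%, 17.6% and 18.4% in the same order. In all 5 libraries 13 of the 38 detected members reached 1 FPKM, 34.2%, while 25.6% of all genes detected somewhere did so. A mean of 10 FPKM or more over the 5 libraries was reached by 25 members, and 8 had a mean of 100 FPKM or more. The members are described below by the membrane route on which each is best known.

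**Figure D1:**
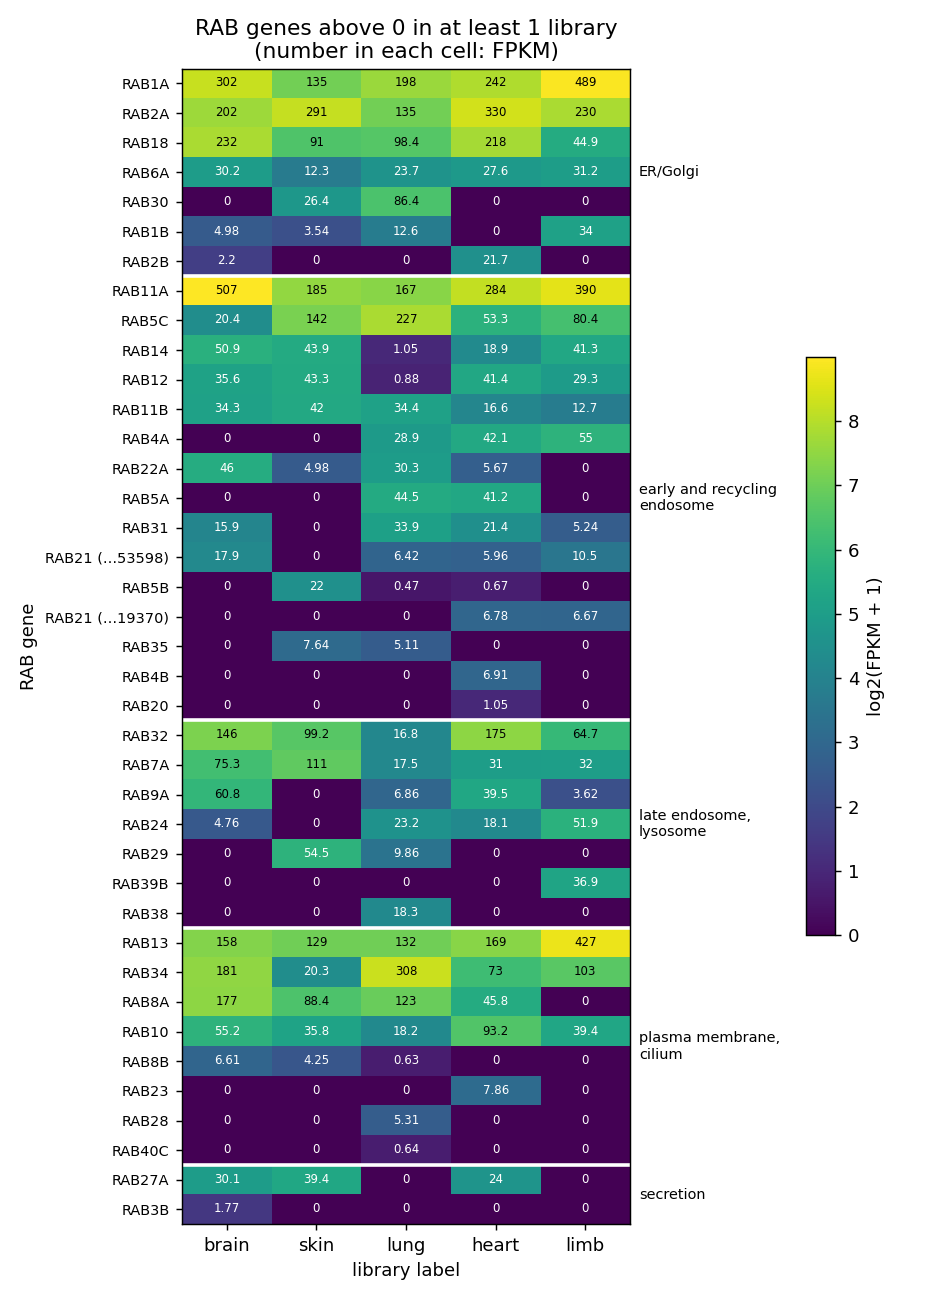
Level of the 39 RAB genes above 0 in at least 1 of the 5 libraries. Rows are genes grouped by route, columns are library labels, colour is log2(FPKM + 1) and the number in each cell is the FPKM. The 14 genes above 0 in all 5 libraries include RAB11A, RAB1A, RAB2A and RAB13, while RAB39B has a value only under the limb label.

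Transport between the endoplasmic reticulum and the Golgi apparatus had 7 of 13 members detected and supplied 30.5% to 40.7% of the summed RAB level. RAB1A, which acts on vesicles moving from the endoplasmic reticulum to the Golgi, was listed at 302 FPKM (brain), 135 (skin), 198 (lung), 242 (heart) and 489 (limb). RAB2A, which works at the Golgi and in fusion with lysosomes, stood at 202 FPKM (brain), 291 (skin), 135 (lung), 330 (heart) and 230 (limb). Both were abundant under every label, with the highest value 3.63 times the lowest for RAB1A and 2.46 times for RAB2A, but the libraries stood in a different order for the 2 genes. RAB6A, of retrograde transport at the Golgi, was lower and even, at 30.2 FPKM (brain), 12.3 (skin), 23.7 (lung), 27.6 (heart) and 31.2 (limb).

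RAB18, which is found on lipid droplets and the endoplasmic reticulum, was listed at 232 FPKM (brain), 91.0 (skin), 98.4 (lung), 218 (heart) and 44.9 (limb). The brain and heart labels thus lay above the other 3. RAB30, a Golgi protein, was above 0 in 2 libraries only, at 26.4 FPKM under the skin label and 86.4 FPKM under the lung label. The closely related second copies of RAB1 and RAB2 were low. RAB1B was listed at 4.98 FPKM (brain), 3.54 (skin), 12.6 (lung), 0 (heart) and 34 (limb). RAB2B had 21.7 FPKM under the heart label, 2.20 FPKM under the brain label and 0 in the other 3. RAB6B, RAB19, RAB33A, RAB33B, RAB36 and RAB43 were listed at 0 in all 5 libraries.

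Early and recycling endosomes had the most members, with 15 of 18 detected. RAB11A, which directs recycling endosomes back to the cell surface, had the highest mean of the family. Its level was 507 FPKM (brain), 185 (skin), 167 (lung), 284 (heart) and 390 (limb). The skin and lung labels were the low end, and the brain-labelled value was 3.03 times the lung-labelled one. RAB11B ordered the libraries differently, at 34.3 FPKM (brain), 42.0 (skin), 34.4 (lung), 16.6 (heart) and 12.7 (limb). The 2 genes encode near-identical proteins, and reads from their transcripts could in part be shared.

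RAB5 proteins govern fusion of early endosomes, and 3 genes encode them. RAB5C was listed at 20.4 FPKM (brain), 142 (skin), 227 (lung), 53.3 (heart) and 80.4 (limb), with the lung-labelled value 11.1 times the brain-labelled one. RAB5A was above 0 in 2 libraries only, at 44.5 FPKM under the lung label and 41.2 FPKM under the heart label. RAB5B was listed at 22.0 FPKM under the skin label, at 0.47 and 0.67 FPKM under the lung and heart labels and at 0 in the other 2. The brain- and limb-labelled libraries thus had RAB5C as their only RAB5 gene above 0, and no library had all 3 genes at 1 FPKM or more.

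RAB4A, of the fast recycling route, was listed at 28.9 FPKM (lung), 42.1 (heart) and 55 (limb) and at 0 under the brain and skin labels. Its relative RAB4B had a value under the heart label alone, at 6.91 FPKM. RAB14, which links the Golgi with endosomes, stood at 50.9 FPKM (brain), 43.9 (skin), 1.05 (lung), 18.9 (heart) and 41.3 (limb). RAB12, which sends the transferrin receptor to lysosomes, had the same low library, at 35.6 FPKM (brain), 43.3 (skin), 0.88 (lung), 41.4 (heart) and 29.3 (limb). RAB22A and RAB31 belong to the RAB5 branch and act at early endosomes and in transport from the Golgi. RAB22A was listed at 46.0 FPKM (brain), 4.98 (skin), 30.3 (lung), 5.67 (heart) and 0 (limb). RAB31 was listed at 15.9 FPKM (brain), 0 (skin), 33.9 (lung), 21.4 (heart) and 5.24 (limb). Both had the lung label among their 2 highest libraries, but their listed 0 fell in different ones.

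The remaining endosomal members were low. Of the 2 entries named RAB21, a regulator of integrin uptake, ENSBTAG00000053598 ranged from 0 under the skin label to 17.9 FPKM under the brain label. ENSBTAG00000019370 was above 0 only under the heart label, at 6.78 FPKM, and the limb label, at 6.67 FPKM. Because both carry 1 name and may be copies of each other, the split of reads between them is uncertain. RAB35, of endocytic recycling, ranged from 0 to 7.64 FPKM, and RAB20, of phagosomes, had a value of 1.05 FPKM under the heart label alone. RAB25 and RAB17, known from polarised epithelial cells, and RAB15 were listed at 0 throughout. Of 8 markers of simple epithelia only CDH1 (E-cadherin) was above 0, in the skin-, lung- and heart-labelled libraries at 13.8 to 55.7 FPKM, and KRT8, KRT18 and EPCAM were listed at 0.

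Late endosomes, lysosomes and autophagy had 7 of 11 members detected. RAB7A, the main RAB of late endosomes and lysosomes, was listed at 75.3 FPKM (brain), 111 (skin), 17.5 (lung), 31.0 (heart) and 32.0 (limb). The skin-labelled value was 6.32 times the lung-labelled one. RAB32, which acts on lysosome-related organelles and mitochondria, was lowest under the same label, at 146 FPKM (brain), 99.2 (skin), 16.8 (lung), 175 (heart) and 64.7 (limb). RAB9A, of transport from late endosomes to the Golgi, had a wider range, at 60.8 FPKM (brain), 0 (skin), 6.86 (lung), 39.5 (heart) and 3.62 (limb). Together these and their relatives gave the lung label a summed level of 92.5 FPKM on this route, against 189 to 287 FPKM in the other 4. This sum leaves out RAB34, which also positions lysosomes but was counted on the route to the plasma membrane and cilium. RAB34 was highest under the lung label, at 308 FPKM, so the order of the libraries depends on where it is counted. On the late endosomal route only RAB7A and RAB32 had their single lowest value under the lung label. RAB9A and RAB24 were lowest under the skin label, and RAB38 had a value under the lung label alone.

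RAB24, linked to autophagy, stood at 4.76 FPKM (brain), 0 (skin), 23.2 (lung), 18.1 (heart) and 51.9 (limb). RAB29, which recruits the kinase LRRK2 to membranes, was above 0 in 2 libraries, at 54.6 FPKM under the skin label and 9.86 FPKM under the lung label. RAB38, a close relative of RAB32 known from pigment granules and from lamellar bodies of alveolar cells, was listed at 18.3 FPKM under the lung label and at 0 elsewhere. In that library 0 of 7 melanocyte and 0 of 8 alveolar markers were above 0. RAB39B, known from neurons, was listed at 36.9 FPKM under the limb label and at 0 elsewhere, and 0 of 11 neuronal markers were above 0 there. RAB7B, RAB9B, RAB39A and RAB42 were listed at 0 in all 5 libraries.

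Delivery to the plasma membrane and the cilium had 7 of 9 members detected. RAB13, of cell junctions, was listed at 158 FPKM (brain), 129 (skin), 132 (lung), 169 (heart) and 427 (limb). The limb-labelled value was 2.53 times the next highest, while the other 4 lay close to each other. RAB34, which positions lysosomes and takes part in forming cilia inside the cell, was listed at 181 FPKM (brain), 20.3 (skin), 308 (lung), 73.1 (heart) and 103 (limb). Its range of 15.2 times was the widest among the 8 members with a mean of 100 FPKM or more. RAB8A, which carries vesicles to the cell surface and the cilium, stood at 177 FPKM (brain), 88.4 (skin), 123 (lung), 45.8 (heart) and 0 (limb). Among the 10 members with a mean of 50 FPKM or more it was the only one listed at 0 anywhere, where 18.1% of all genes at that level were.

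RAB10, of exocytosis including the delivery of glucose transporters, was listed at 55.2 FPKM (brain), 35.8 (skin), 18.2 (lung), 93.2 (heart) and 39.4 (limb). Its heart-labelled value was 5.13 times the lung-labelled one. RAB8B ranged from 0 to 6.61 FPKM and was not above RAB8A in any library. RAB23 and RAB28, both linked to cilia, each had a value in 1 library, RAB23 at 7.86 FPKM under the heart label and RAB28 at 5.31 FPKM under the lung label. RAB40C, part of a ubiquitin ligase, was listed at 0.64 FPKM under the lung label, below the 1 FPKM used for detection, and RAB40B was at 0.

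Regulated secretion was the route with the fewest members present, 2 of 9. RAB27A, which docks secretory granules, melanosomes and exosome-producing endosomes, was listed at 30.1 FPKM (brain), 39.4 (skin), 0 (lung), 24 (heart) and 0 (limb). RAB3B had a value under the brain label alone, at 1.77 FPKM. RAB3A, RAB3C, RAB3D, RAB26, RAB27B, RAB37 and RAB44, most of them known from neurons, exocrine glands or blood cells, were listed at 0 in all 5 libraries. Of the 19 markers of neurons and leukocytes, only GAD2 was above 0, at 10.4 FPKM under the lung label. Markers of exocrine glands were not examined.

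**Figure D2:**
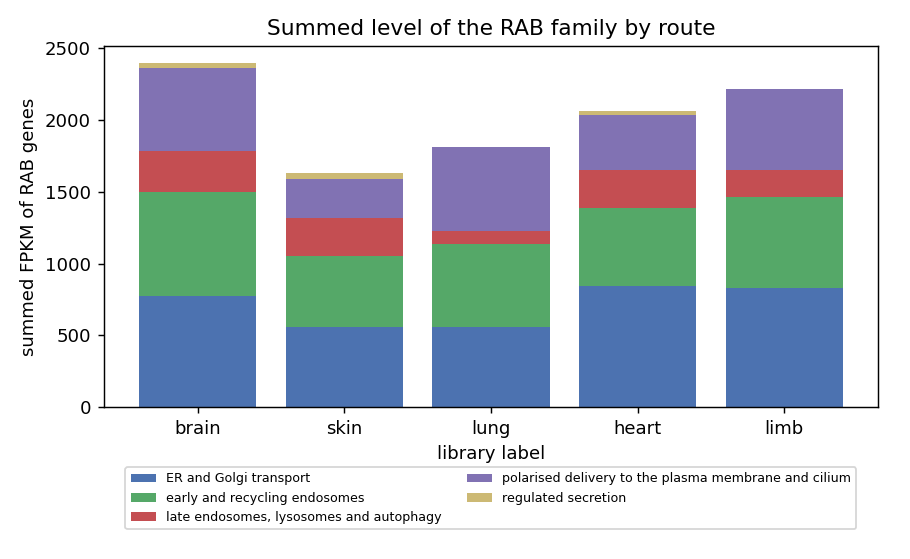
Summed FPKM of the 60 RAB genes in each library, stacked by route. The sums run from 1631 FPKM under the skin label to 2398 FPKM under the brain label. The late endosomal part, which leaves out RAB34, is smallest under the lung label, at 92.5 FPKM.

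Added up, the family took 0.224% of the summed FPKM under the brain label, 0.197% under limb, 0.187% under heart, 0.155% under lung and 0.140% under skin. The brain label was highest and the skin label lowest as deposited and under all 3 rescalings of the libraries, whereas the heart label passed the limb label under 2 of them. RAB11A, RAB1A, RAB2A, RAB13 and RAB34 together held 46.6% of the RAB sum in the skin-labelled and 73.9% in the limb-labelled library, with the other 3 between. The late endosomal route, counted without RAB34, was lowest under the lung label under each rescaling as well. The rescalings do not bear on which route a gene is given, and a sum with RAB34 was not computed. The highest library of the route changed between the brain and heart labels, at 287 and 264 FPKM as deposited.

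How far related genes replaced each other was followed in the 14 groups that share a number and differ in the letter. In 12 of them at least 1 member was detected, and in 6 at least 2 were. In all 6, the same gene had the highest level in each library with any value: RAB1A, RAB2A, RAB4A, RAB5C, RAB8A and RAB11A. Where its group had a value, RAB1A held at least 93.5% of it, RAB2A 93.8%, RAB8A 95.4% and RAB11A 81.5%. RAB4A held at least 85.9% in the 3 libraries with a value, and RAB5C held 56.0% under the heart label, where RAB5A stood beside it, and at least 83.5% in the other 4. In the RAB6, RAB7, RAB9 and RAB27 groups only the gene ending in A had a value, and in the RAB3 and RAB39 groups only the gene ending in B, RAB3B and RAB39B. Genes within a group are similar in sequence, so a small part of a partner's level may come from reads assigned to the wrong one, which was not tested.

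**Figure D3:**
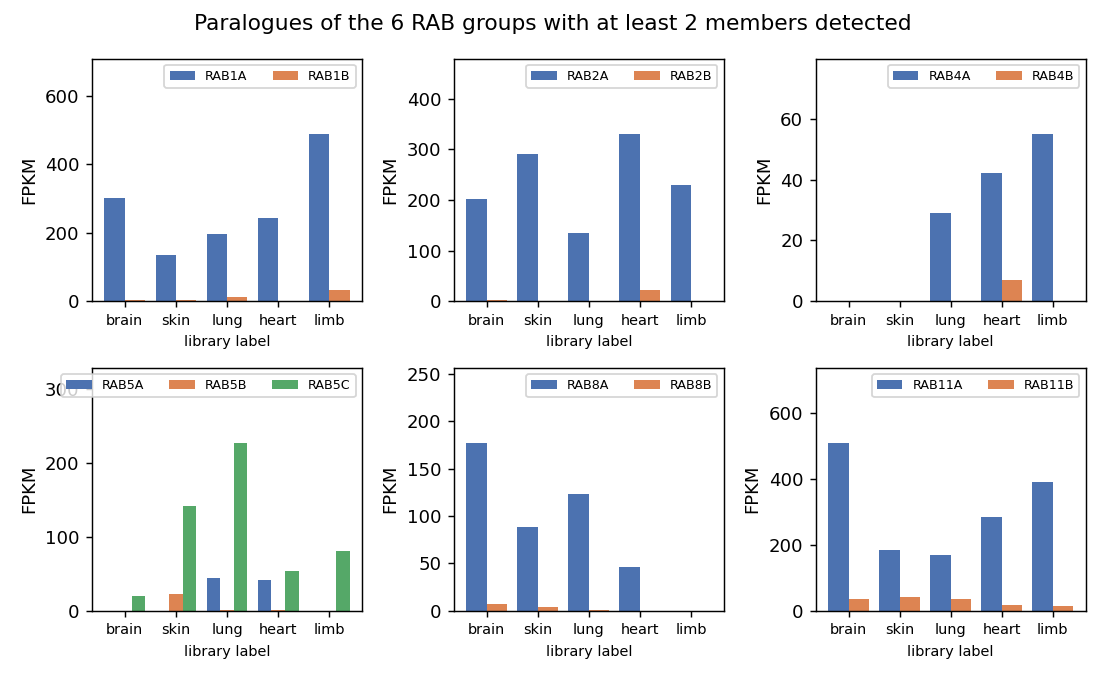
FPKM of the genes in the 6 RAB groups with at least 2 detected members, 1 panel per group, with bars by library label and colour by gene. RAB11A stays above RAB11B in all 5 libraries, while RAB5A comes close to RAB5C only under the heart label, at 41.2 against 53.3 FPKM.

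Genes that stood apart in a single library were sought next. A gene reaching 10 FPKM counted as high in a library when its level plus 1 was at least 4 times the highest of the other 4 plus 1. Of the 30 RAB genes that reached 10 FPKM anywhere, 5 met this, against 24.1% of all such genes. They were RAB29 and RAB5B under the skin label, RAB38 under the lung label, RAB2B under the heart label and RAB39B under the limb label, with 0 under the brain label. By library, 8.84% of all genes at 10 FPKM or more were called high under the skin label, 10.2% under the lung label, 8.17% under the heart label, 7.99% under the limb label and 7.45% under the brain label. The RAB29 level was 5.53 times the next highest, that of RAB2B 9.87 times and that of RAB5B 32.9 times, the last against 0.67 FPKM. RAB38 and RAB39B were listed at 0 in the other 4, so no ratio is given. RAB29 had the highest mean of the 5, at 12.9 FPKM. With a minimum of 50 FPKM only RAB29 was left, and RAB38 was lost at a minimum of 20 FPKM. RAB2B was lost when 5 was added in place of 1, and without the lung-labelled library 8 genes were called. Shares of all genes were not computed for these settings.

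Low in a single library, with the other 4 all reaching 10 FPKM and lying at least 4 times higher after adding 1, were 3 of the 15 RAB genes that could be called, against 29.6% of all such genes. RAB12 and RAB14 were low under the lung label, where 9.19% of genes were called low, and RAB8A under the limb label, where 11.2% were. The lowest of the other libraries was 33.3 times the lung-labelled level for RAB12 and 18.0 times for RAB14, both against about 1 FPKM. The call for RAB14 was lost at a minimum of 20 FPKM and when 5 was added in place of 1. For RAB8A the lowest other value was 45.8 FPKM against a listed 0. Low under the brain, skin and heart labels were 0 RAB genes, where 2.76%, 12.7% and 4.27% of all genes were called. Over the 5 libraries, neither the high nor the low count was above the share of all genes. Without the brain-labelled or the limb-labelled library the low genes numbered 5, and with the other 4 set at a minimum of 50 FPKM there were 0. For these settings too, shares of all genes were not computed.

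**Figure D4:**
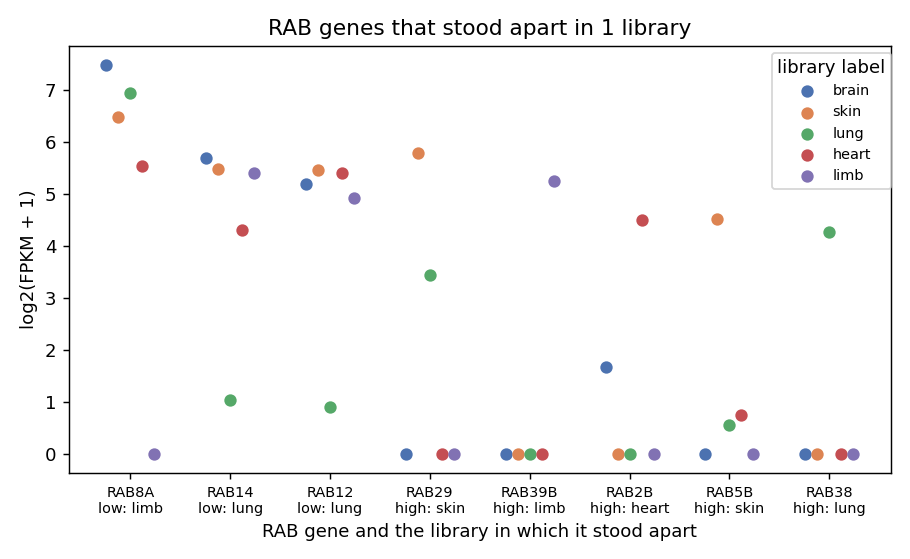
Level of the 8 RAB genes that stood apart in 1 library, as log2(FPKM + 1), with 1 point per library and colour by label. RAB8A, RAB14 and RAB12 have 1 low point each, at 0 to 1.05 FPKM, and the other 5 have 1 high point between 18.3 and 54.6 FPKM.

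Libraries were then compared in 10 pairs, in which a gene counted as different when 1 of the 2 values reached 10 FPKM and, after adding 1 to both, they stood at least 4 times apart. Over all pairs, RAB genes differed in 98 of 248 comparisons, 39.5%, against 48.1% for all genes. The same genes enter several pairs, and these shares are not matched for level. Between the highest and lowest library, 19 of 25 RAB genes with a mean of 10 FPKM or more differed this far, against 76.3% of all such genes. At a mean of 50 FPKM or more 6 of 10 did, against 53%, and at 100 FPKM or more 4 of 8, against 39.2%. Among the pairs, the fewest RAB genes differed between the brain and heart labels, 4 of 24, against 37% of all genes. RAB22A was higher under the brain label, and RAB2B, RAB4A and RAB5A under the heart label. Fibroblast markers, 4 of 8 above 0 in at least 1 library, summed to 509 FPKM under brain and 786 under heart. The sums were 104 under skin, 78.2 under lung and 321 under limb. COL1A1 and COL1A2 were highest under the brain and heart labels. COL3A1 was not, at 67.57 FPKM (brain), 72.58 (skin), 33.45 (lung), 72.07 (heart) and 72.52 (limb). PDGFRA was listed at 0 under the brain and heart labels and at 0.57 and 1.57 FPKM under skin and lung. DCN, LUM, PDGFRB and THY1 were listed at 0 throughout, and the part of fibroblasts in the RAB counts was not tested. The most differed between the skin and lung labels, 14 of 26, against 51.6% of all genes. There RAB7A, RAB12, RAB14, RAB27A, RAB29, RAB32 and RAB5B were higher under the skin label. RAB4A, RAB5A, RAB22A, RAB24, RAB31, RAB34 and RAB38 were higher under the lung label. Each side therefore had 7 genes, while among all genes 21.4% were higher under the skin label and 30.3% under the lung label.

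In the other 8 pairs the RAB share was level with the background once, at 12 of 26 between the brain and lung labels, against 46.2%. It was 13 of 26 between the lung and heart labels, just above the 48.2% of all genes, and 11 of 24 between the skin and limb labels, against 53.6%. The rest lay further below the background. There 9 of 23 differed between the brain and skin labels, against 49.5%, 9 of 24 between brain and limb, against 45.7%, and 9 of 25 between skin and heart, against 50.9%. Between the lung and limb labels 9 of 25 differed, against 53.1%, and between the heart and limb labels 8 of 25, against 45.9%. Of the 30 members at 10 FPKM somewhere, 24 differed in at least 1 pair, against 83.8% of all genes. The 6 that differed in none of the 10 pairs were RAB11A, RAB1A, RAB2A, RAB13, RAB11B and RAB6A. RAB4A, RAB5A, RAB9A, RAB22A, RAB27A and RAB30 differed in 6 pairs each, the most of any member, and all 6 were listed at 0 in at least 1 library.

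**Figure D5:**
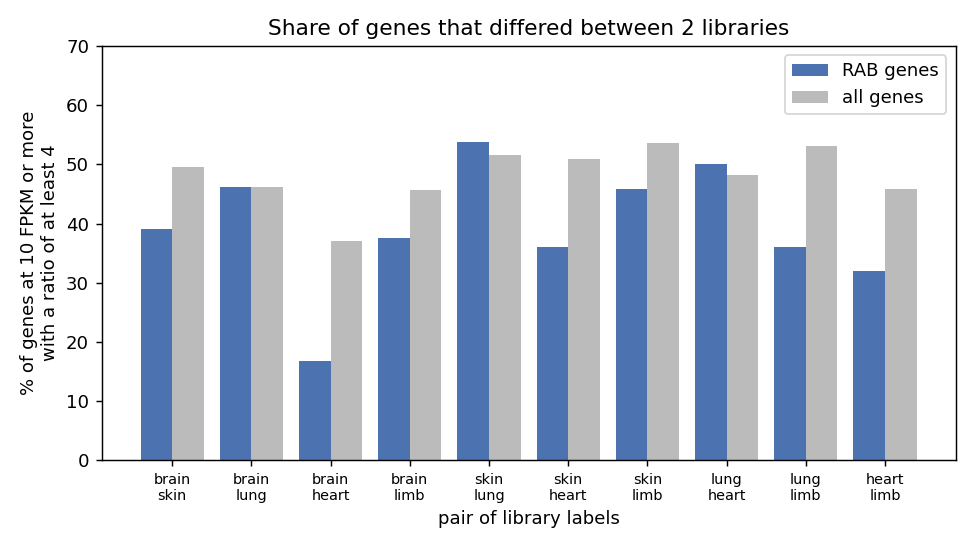
Share of RAB genes and of all genes that differed by a ratio of at least 4 in each of the 10 pairs of libraries, in percent of the genes at 10 FPKM or more in either library. RAB genes are lowest for the brain and heart labels, at 16.7% against 37% of all genes, and highest for the skin and lung labels, at 53.8% against 51.6%.

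How the level of a member bore on its spread was described last. Of the 14 RAB genes above 0 in all 5 libraries, 8 had a highest value at least 4 times the lowest, against 54.7% of all such genes, and the median range was 5.15 times against 4.48 times. Among genes with a mean of 10 FPKM or more, 11 of 25 RAB genes were listed at 0 in at least 1 library, against 50.3% of all genes. The difference in log2(FPKM + 1) from the mean of the other 4 libraries had a median, over the 36 RAB genes with a mean of 1 FPKM or more, of 0.38 under the brain label, against 0.15 for all 8694 such genes. It was -0.34 against -0.16 under the lung label and 0.08 against -0.01 under the heart label. Rescaling by the median ratio changed the heart-labelled values to 0.23 against 0.13. Under the skin label it was -0.68 against -0.73, and under the limb label -0.59 against -0.67. The members were split in every library. A difference above 0 was found for 19 of 36 under the brain label and 17 lay below. Those above 0 numbered 16 under lung, 19 under heart, 14 under skin and 15 under limb. Across the 36 genes the levels of 2 libraries had a Pearson correlation between 0.49, for the skin and limb labels, and 0.78, for the brain and heart labels. The same pairs had 0.58 and 0.67 over all 8694 genes. The points share the libraries' depth and their zeros, so these values are a description.

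The machinery that handles RAB proteins was followed in lists of genes. Counts high in 1 library are given of the genes that reached 10 FPKM, where 24.1% of all genes were called. Counts low are given of the genes that reached it in at least 4 libraries, where 29.6% were. Counts detected stand beside 34.8% of all genes and 43.8% of those with a name. Of 8 genes for lipid attachment and membrane cycling, 7 were detected, with 1 of 7 high and 0 of 3 low. RABAC1, which helps RABs leave their carrier at the membrane, was listed at 623 FPKM (brain), 716 (skin), 469 (lung), 892 (heart) and 701 (limb). GDI2, which extracts GDP-bound RABs from membranes, stood at 350.3 FPKM (brain), 258 (skin), 430.0 (lung), 187 (heart) and 159 (limb). RABAC1 was thus above every RAB gene in each library. RABIF, a chaperone for nucleotide-free RABs, was high under the brain label, at 161 FPKM against 11.3 to 33.1 FPKM in the other 4.

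The 2 subunits of the transferase that attaches the lipid, chosen after their values were seen, had their listed 0 in different libraries. RABGGTA was listed at 46.6, 67.3 and 46.0 FPKM under the brain, skin and lung labels and at 0 under the heart and limb labels. RABGGTB was listed at 7.97, 24.6 and 73.3 FPKM under the brain, heart and limb labels and at 0 under the skin and lung labels. Both were above 0 only under the brain label. Their means were 32.0 and 21.2 FPKM. Of all genes with a mean of 10 to under 50 FPKM, 74.1% were listed at 0 in at least 1 library.

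Exchange factors were detected less often than the RAB genes themselves, at 19 of 38 against 38 of 60, but above the 43.8% of named genes. A mean of 10 FPKM or more was reached by 5 of them. CCZ1, which with its partner MON1 activates RAB7, was listed at 58.4 FPKM (brain), 83.5 (skin), 14.3 (lung), 112 (heart) and 35.5 (limb). DENND6A, an activator of RAB14, ranged from 0 under the skin and limb labels to 45.0 FPKM under the lung label, and DENND2B, an activator of RAB13, from 3.40 to 27.7 FPKM. In 1 library each, 3 of 12 were high and 0 of 1 low. The 3 were RAB3IP, an activator of RAB8, at 20.8 FPKM under the brain label, MON1A at 13.2 FPKM under the lung label and HPS1, of the complex that activates RAB32 and RAB38, at 12.8 FPKM under the heart label. All 3 were listed at 0 in the other 4 libraries. The TRAPP complexes, which activate RAB1 and RAB11 and tether vesicles, had 12 of 14 genes detected, 1 of 12 high and 2 of 6 low. TRAPPC1 stood at 128 to 712 FPKM, TRAPPC5 at 47.2 to 376 FPKM and TRAPPC4 at 48.0 to 189 FPKM. TRAPPC2 was listed at 0 under the skin label and TRAPPC3 at 0 under the limb label, against at least 69.0 and 36.3 FPKM in the other 4, and TRAPPC6A was high under the skin label at 51.0 FPKM.

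GTPase-activating proteins had 24 of 42 genes detected, 5 of 17 high and 3 of 3 low. TBC1D7, also a subunit of the TSC complex, was listed at 32.8 to 64.9 FPKM in 4 libraries and at 0 under the limb label. TBC1D15, which acts on RAB7, was low under the brain label, at 3.46 FPKM, and ranged up to 60.2 FPKM under the skin label, and TBC1D20, which acts on RAB1 and RAB18, from 4.98 to 32.5 FPKM. RABGAP1, the last of the 3 low genes, was listed at 0 under the brain label and at 12.1 to 27.2 FPKM in the other 4. RABGAP1L at 29.2 FPKM under the heart label, TBC1D5 at 28.3 FPKM under the brain label and TBC1D12 at 21.4 FPKM under the limb label were listed at 0 elsewhere.

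Effectors and tethers had 54 of 75 entries detected, 6 of 36 high and 1 of 7 low. VPS29 and VPS26A, subunits of the retromer coat that works with RAB7, were listed at 180.5 to 645 FPKM and 27.3 to 110.3 FPKM. RILPL2, which binds RABs phosphorylated by LRRK2, ranged from 15.9 FPKM under the lung label to 165 FPKM under the brain label. RUFY3, BICD2 and RABEP2 were high under the brain label at 24.1, 18.2 and 11.8 FPKM and RBSN under the lung label at 11.9 FPKM, each listed at 0 elsewhere. The 1 low gene was SYTL2, an effector of RAB27, listed at 0 under the lung label and at 11.5 to 39.2 FPKM in the other 4. RAB27A was at 0 under the lung label too, but also under the limb label, where SYTL2 stood at 17.8 FPKM.

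Beside 2 other branches of small GTPases, RAB genes were detected as 38 of 60, RAS genes as 16 of 26 and ARF and SAR genes as 22 of 25. High in 1 library were 5 of 30 RAB genes, 1 of 15 RAS genes and 8 of 21 ARF and SAR genes, against the 24.1% above. Low were 3 of 15, 4 of 9 and 4 of 11, against 29.6%. The highest mean in each branch was 333 FPKM for RHEB and 798 FPKM for ARF4, against 307 FPKM for RAB11A. Of 7 related genes outside the naming rule 6 were detected, with 1 of 5 high and 1 of 3 low. RAN, which drives transport through the nuclear pore, was listed at 1296 to 2979 FPKM. The others had means of at most 83.2 FPKM, that of IFT22, a protein of transport within cilia. RABL2B was low under the skin label, at 0 against 12.6 to 103 FPKM in the other 4, and RABL3 was high there, at 18.1 FPKM against 0.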

How the data were processed

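The deposited file lists 27607 genes by Ensembl identifier, 19856 of them with a name, for the 5 libraries. The deposited values were taken as FPKM by elimination, since they are not whole numbers and sum to more than the fixed total of TPM. The unit is not named in the table or labels. Per the submitters' processing notes, bcl2fastq, STAR and RSEM were used with the ARS-UCD1.2 build. No version, annotation release or filter is stated in the sources used here. All 59 RAB names matched a protein-coding RefSeq gene of ARS-UCD2.0 by symbol. The builds differ, so no coordinates are given.

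Values were used as deposited, with Python 3.11.15 and pandas 2.3.3 and with no count model and no p-value. The rules of size are given beside the results, with 1 FPKM added before ratios. Adding 1 understates the ratio of low genes. The code for the rules was run on simulated data with planted differences. That simulation lacked the many listed zeros of these libraries, so it checks the code only. RAB genes at a mean of 10 FPKM or more, or high or low in 1 library, are named with 5 values. In each list of partners the 3 with the highest mean and up to 4 that stood apart, by ratio, are named. SYTL2, RABGAP1 and the transferase subunits were named after their values were seen. The members, routes and lists were chosen with earlier results of these data known. Rescaling was by the median ratio, by trimmed log ratios and by the total without mitochondrial, haemoglobin and ribosomal protein genes. The largest shift was 0.14 on the log2 scale, for the heart label by the median ratio. 1 list of related genes is not reported here.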

Additional observations from a re-analysis of the deposited data

How the results depend on the processing

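RAB genes high in 1 library numbered 5, with 9 at a ratio of at least 2, 3 with a ratio of at least 8, 8 with a minimum of 5 FPKM, 1 with a minimum of 50 FPKM, 11 against the mean of the other 4 libraries and 8 without the lung-labelled library. RAB genes low in 1 library numbered 3, with 7 at a ratio of at least 2, 5 at a minimum of 5 FPKM, 0 at a minimum of 50 FPKM, 17 against the mean of the other 4, and 5 without the brain-labelled and 5 without the limb-labelled library. Differences over the 10 pairs numbered 98, with 162 at a ratio of at least 2 and 33 at a minimum of 50 FPKM. The other settings for these 3 counts, and all 5 for each count of detected genes, stayed within 1.5 times. Adding 5 in place of 1 gave 4 high, without RAB2B, and 2 low, without RAB14. A looser or stricter rule changes the counts by its own construction. The share of all genes was not computed under these other settings. Whether the RAB counts moved differently from those of all genes is therefore not known. Among the alternatives, summing the 2 RAB21 entries was chosen after seeing the data, and it gave 5 high, 3 low and 99 pair differences. No paired analysis was possible because each label has 1 library and no test was run.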
